A study of Caenorhabditis elegans with 2 samples.

Results

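Binding of the transcription factor DVE-1 inside the exons of protein-coding genes was examined in whole Caenorhabditis elegans, by chromatin immunoprecipitation and sequencing. An exon peak is a peak of the optimal list, the regions kept after filtering on the irreproducible discovery rate (IDR) between replicates, on chromosome II, III, IV or V, whose summit falls in a coding or untranslated exon of at least 1 protein-coding transcript. Of 7262 optimal peaks in all, 4635 lie on these 4 chromosomes, and 524 of them (11.3%, 95% exact binomial interval 10.4 to 12.3) are exon peaks. A further 1134 (24.5%) have their summit in an intron and 2977 (64.2%) outside every protein-coding transcript. These 4111 are called the other autosomal peaks below, although chromosome I, also an autosome, was left out. Membership rests on position alone, so signal and replicate support played no part in the choice beyond that of the optimal list.

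The animals were hermaphrodites at L4, the last larval stage, of strain OP398, with the genotype unc-119(tm4063) III; wgIs398. The wgIs398 transgene encodes DVE-1 with GFP and FLAG at its C-terminus, and the antibody recognised GFP. The samples were 2 biological replicates of 1 group, from separate biosamples of the same transgenic line, and no second condition. Chromatin came from whole animals and was sheared by sonication, so that binding in few cells and weak binding in many cannot be told apart. Sequencing depth is unknown, as the lists hold no read counts, and the intervals given on shares cover counting error over peaks only. Each relaxed list, of 30000 regions, was made against 1 control alignment that both replicates share. With 1 group, no test between conditions was made, and all comparisons are descriptions of peaks and bases.

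DVE-1 is a SATB-type homeodomain protein that acts in the unfolded protein response of mitochondria, in which chaperone genes of the nucleus are induced when mitochondrial protein folding fails. Sequence-specific factors are mostly found at promoters, just before the 5' end of a transcript, and at enhancers. A summit in an exon can lie just behind such a 5' end, before the 5' end of a shorter transcript that starts inside the gene, before the next gene in a compact genome, or far from all annotated starts. In C. elegans many messenger RNAs receive a spliced leader in place of their original 5' end, so an annotated 5' end is often not the place where transcription starts.

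The coding stretches below show where summits fell far from the annotated starts of protein-coding genes. Each is read on the strand of the host gene, 5' to 3', from the ce11 genome (WBcel235, RefSeq copy), and the capital marks the summit base. All are over 500 bp from every annotated 5' end of a protein-coding gene. Throughout, 5' ends are those of protein-coding transcripts, and the starts of noncoding genes were not used. The hosts are F01F1.3 (chrIII:5874456-5874485, plus strand), pqm-1, which encodes a zinc finger transcription factor of the stress response (chrII:11151154-11151183, minus strand), dos-3, named for the DOS motif of Notch co-ligands (chrIII:835931-835960, minus strand), lin-12, a Notch receptor (chrIII:9060431-9060460, minus strand), and mtx-2, a metaxin of the mitochondrial outer membrane (chrIII:7762450-7762479, minus strand).
F01F1.3: tgggcatttggatgGagtgagctgaatatt
pqm-1: cggcgatgctcgagaAacatatcaggaggc
dos-3: tgaacgtggattggcTccagggccaaatcg
lin-12: acacccaaatgcagaAtgaaccaatgacgc
mtx-2: caaagttgagatacgGaagtgtttatcact

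Motifs of 6 to 9 bases were searched on both strands in the 201 bp centred on each summit. They were GAGACGCAG, which earlier results on these peaks had brought up, TGATAA, the core of sites for GATA factors, and CACGTG, the E-box of many bHLH factors, and none of these strings contains another. The stretches below are all coding sequence, with the motif in capitals and 10 bp on each side. In that of best-18 the flank holds a further TGATAA, left in lower case. The peaks of T16G1.18 (chrV:12951354-12951382, minus strand) and tctn-1 (chrIV:4747653-4747681, plus strand) hold the first motif. Those of best-18 (chrIII:10214712-10214737, plus strand), dos-3 (chrIII:835962-835987, plus strand) and mtx-2 (chrIII:7762442-7762467, plus strand) hold the second, and those of pqm-1 (chrII:11151184-11151209, plus strand) and K08D12.4 (chrIV:1708473-1708498, plus strand) hold the third. The summits of T16G1.18 and tctn-1 are 48 and 151 bp from the nearest annotated 5' end, and those of the other peaks named here are over 500 bp away.
T16G1.18: gtaggagtgaGAGACGCAGagaccgtatg
tctn-1: attttgcttgGAGACGCAGaacaaacgag
best-18: ttgaacccatTGATAAaattgataag
dos-3: ggattccgggTGATAAtagtatttgt
mtx-2: aagtggccagTGATAAacacttccgt
pqm-1: gactctttgaCACGTGacgacagtgc
K08D12.4: gctcccagtaCACGTGgacgatcctt

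GAGACGCAG was found at 33 of 524 exon peaks (6.30%) and 432 of 4111 other autosomal peaks (10.5%). Windows of the same length, centred on the annotated exons of the 4 chromosomes after overlapping ones were merged, held it in 226 of 82816 (0.273%). The motif came from earlier results on these same peaks, so its higher share at peaks than in these windows is not independent evidence. Within the exon peaks it was at 22 of 219 summits in 5' untranslated sequence (10.05%), 6 of 130 in 3' untranslated sequence (4.62%) and 5 of 175 in coding sequence (2.86%). TGATAA was found at 236 exon peaks (45.04%), at 43.1% of the other autosomal peaks and in 19.1% of the exon windows, and in coding sequence its share was 45.1%. CACGTG was found at 37 exon peaks (7.06%), at 9.51% of the others and in 4.36% of the exon windows. The median GC content of the 201 bp was 36.8% at exon peaks, 38.3% at the others and 37.8% in the exon windows. The exon windows were not matched to the peaks by kind of sequence, coding or untranslated. A match is a string of letters and not a measured site.

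Exons hold fewer summits than their share of the genome. Exon bases make up 30.3% of chromosomes II to V and introns 32.2%, so that there were 25.7 optimal summits per Mb of exon, 52.2 per Mb of intron and 117.5 per Mb elsewhere. The density was uneven among exon bases. It was 222.9 per Mb in 5' untranslated sequence, 58.7 in 3' untranslated sequence and 10.2 in coding sequence, which is 84.3% of the exon bases and held 175 of the 524 summits (33.4%, exact 29.4 to 37.6). The 219 summits in 5' untranslated sequence (41.8%) thus outnumbered those in coding sequence, although such sequence is 4.81% of the exon bases. The remaining 130 summits (24.8%) were in 3' untranslated sequence. By chromosome, exon peaks made up 8.57% of the optimal peaks of II (95 of 1109), 11.5% of III (130 of 1132), 10.3% of IV (114 of 1108) and 14.4% of V (185 of 1286), or 19.3, 30.5, 24.2 and 28.3 per Mb of exon.

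**Figure D1:**
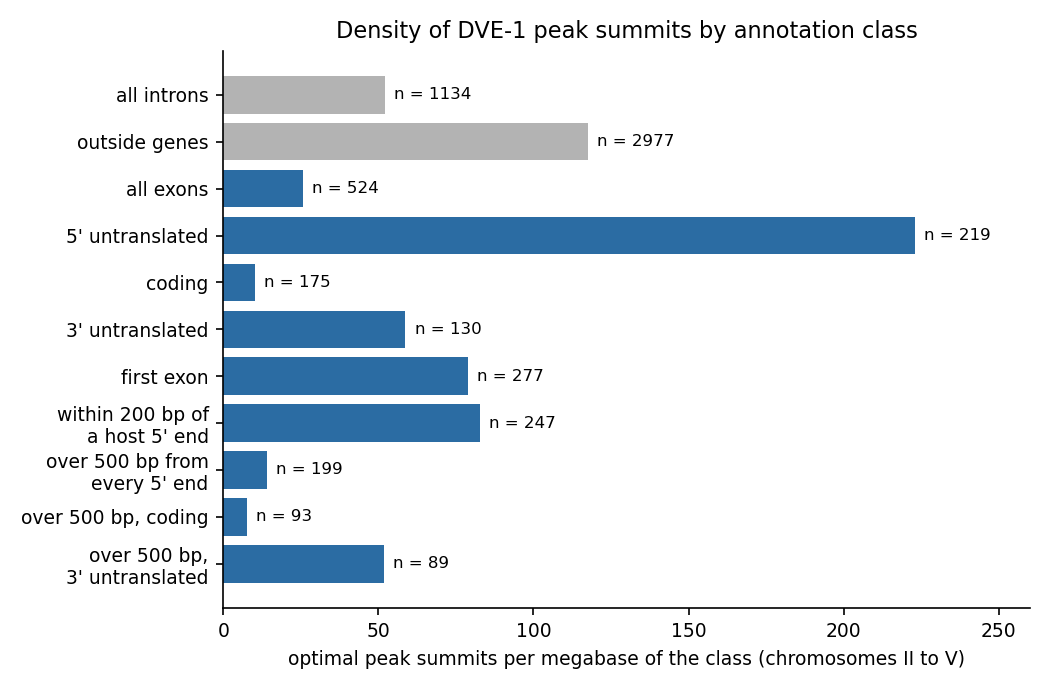
Optimal peak summits per megabase of each class of bases on chromosomes II to V, with exon classes in blue, other classes in grey and the number of summits at each bar. The 5' untranslated bases have the highest density shown, 222.9 per Mb, and coding bases over 500 bp from every 5' end the lowest, 7.60 per Mb.

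First exons held 277 exon peaks (52.9%, exact 48.5 to 57.2), a density of 78.8 per Mb, with 17.2% of the exon bases. Of these summits 213 were in 5' untranslated and 64 in coding sequence, and 13 were in an exon that is first in some transcripts and later in others. The first exon summits had a median position of 33 bp downstream of the nearest 5' end of the host gene (quartiles 8 and 97 bp). Of the 277, 239 (86.3%) were within 200 bp of it. A first exon lies behind a 5' end by definition, and the share of first exon bases that close was not computed. The 219 summits in 5' untranslated sequence had a median position of -120 bp relative to the nearest start codon of the host (quartiles -222.5 and -73 bp, negative being upstream), and 152 (69.4%) were within 200 bp upstream of one.

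The other 247 exon peaks (47.1%) were in later exons, of which 111 were in coding, 130 in 3' untranslated and 6 in 5' untranslated sequence. These lay mostly at the end of the gene. Of the 247, 175 (70.9%, exact 64.8 to 76.4) were in a last exon, 72 in neither the first nor the last, and 33 in a second exon. Their median place was 90.6% of the way along the host gene, and later exons leave out the start of the transcript by definition. Over all exon peaks, 178 (34.0%) were in a last exon, against 25.6% of exon bases. The matching share of later exon bases was not computed. Only 8 of the 247 (3.24%) were within 200 bp of a 5' end of the host, against the 86.3% of first exon summits. The classes themselves make for such a gap, and its size among bases was not computed.

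**Figure D2:**
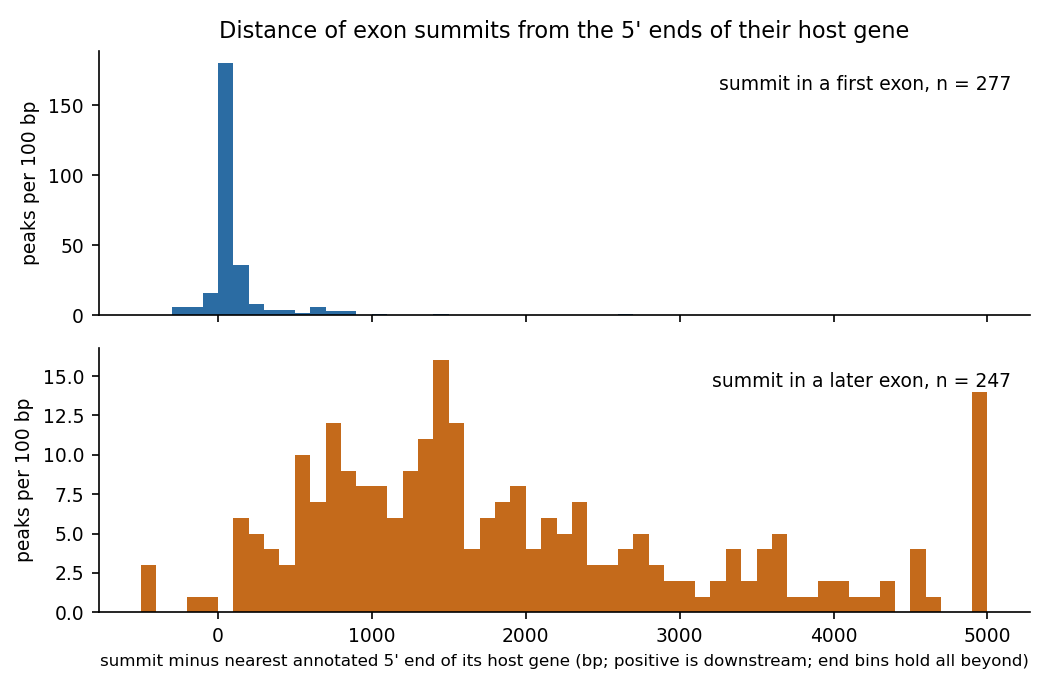
Number of exon peaks in 100 bp bins of the distance from the nearest annotated 5' end of the host gene, for summits in a first exon (top, n = 277) and in a later exon (bottom, n = 247). First exon summits, which lie behind a 5' end of the host by definition, had a median of 33 bp. Later exon summits spread widely along the gene, with a median of 1520 bp.

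The signal of a peak is the authors' own value against the control, scaled separately in each list, and the median optimal peak has 64.7 in the optimal list, 29.4 in replicate 1 and 37.8 in replicate 2. Relative signal is the value in a replicate divided by that replicate's median. The strongest was in C34C12.2 (III, 3456279 to 3456556, rank 33 of 7262), with a signal of 368 in the optimal list, 183 in replicate 1 and 186 in replicate 2, a relative signal of 5.56 ± 0.92 (SD, n = 2). Its summit was 2627 bp behind the annotated 5' end, in a first exon of 2829 bp, and at -187 bp from the start codon.

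Y39B6A.5 (V, 19158686 to 19158997) came next with a signal of 354, at 135 in replicate 1 and 223 in replicate 2, and its summit was 19 bp behind the 5' end. At rab-18 (III, 1080638 to 1080863), for a small GTPase of the Rab family, the signal was 255, with 99.0 in replicate 1 and 170 in replicate 2, and the summit was 32 bp behind the 5' end. Both were well above the median of each replicate, and replicate 2 gave the higher relative value at both. The divergent gene kbp-4 starts beyond rab-18, with the summit at -158 bp from its 5' end, so that this peak lies just behind one 5' end and before another.

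At ceh-38 (II, 6951428 to 6951692), for a homeodomain factor of the ONECUT class, the signal was 251, with 116.3 in replicate 1 and 135 in replicate 2, and the summit was 13 bp behind the outermost 5' end. At sma-2 (III, 8749588 to 8749845), for an R-SMAD of the BMP-like pathway that sets body size, it was 232, with 98.6 in replicate 1 and 136 in replicate 2, and the summit was 23 bp behind the 5' end. These are promoter-proximal peaks that count as exonic because the first exon starts before the summit. Of the 524 peak intervals, 247 (47.1%) contain an annotated 5' end and 21.4% lie wholly in exons of the host.

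The fifth strongest, at R04B5.6 (V, 10087180 to 10087454), was of another kind. Its signal was 247, with 118 in replicate 1 and 132 in replicate 2, and the summit was in the 3' untranslated part of the last exon, at -159 bp from the 5' end of R04B5.5 on the same strand. Thus the end of one gene was the upstream region of the next. Over all exon peaks, 41 (7.82%, exact 5.67 to 10.5) were within 200 bp of a 5' end of another gene, 19 of them of a gene on the same strand, where 1.51% of exon bases are that close. Among the 178 last exon peaks, 18 (10.1%, exact 6.10 to 15.5) were within 200 bp of another gene's 5' end, against 4.09% of last exon bases. With the wider window from 1000 bp upstream to 200 bp downstream of another gene's 5' end, the last exon peaks (53, 29.8%) were close to the bases (29.0%), and all exon peaks (124, 23.7%) were above them (15.2%).

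Other last exon peaks before a neighbour were at col-153, a cuticle collagen gene (V, 10951718 to 10951933), with the summit at -58 bp from F17C11.4, and at srh-40, a chemoreceptor-type gene (III, 6612325 to 6612688), at -21 bp from ctsa-4.2. The signal at col-153 was 96.3, with 47.1 in replicate 1 and 48.9 in replicate 2. That at srh-40 was 73.7, with 33.5 in replicate 1 and 38.4 in replicate 2. Both were above the median of each replicate. At B0244.17 (III, 5734920 to 5735283) the summit lay on the last base of the last exon and at -56 bp from B0244.10, with a signal of 22.2 in replicate 1, below that replicate's median, and 56.9 in replicate 2, above it.

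Internal 5' ends, taken as those over 100 bp downstream of the outermost 5' end of the gene, were the next question. Of the 524 exon peaks, 64 (12.2%, exact 9.53 to 15.3) were within 200 bp of one, where 4.12% of the exon bases are, and 42 of the 64 summits lay upstream of it. Genes with such an end hosted 215 exon peaks. For 36 of the 64 the outermost 5' end was over 200 bp away, so that of these ends only the internal one was near. In 28 the outermost end was near as well, as at ceh-38, where the summit was at -88 bp from an internal end. A summit up to 100 bp behind the outermost end is upstream of every internal end by definition. No preference for the upstream side can therefore be read from the 42.

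Among the 10 strongest of the 64, the summit farthest behind the outermost 5' end was at crh-1, the worm homologue of the transcription factor CREB (III, 11689349 to 11689690). The summit was 16 bp behind an internal 5' end and 31761 bp behind the outermost one, with a signal of 194, at 81.7 in replicate 1 and 113 in replicate 2 (relative signal 2.89 ± 0.15, SD, n = 2). At srh-2, a chemoreceptor-type gene (V, 731349 to 731625), the summit was 85 bp behind an internal end and 3193 bp behind the outermost one, with 105 in replicate 1 and 113 in replicate 2. Both genes also had an optimal summit at the outermost promoter.

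At gldi-8 (III, 12598544 to 12598732) the summit was 38 bp behind an internal end and 1083 bp behind the outermost, with 62.7 in replicate 1 and 69.7 in replicate 2. At C40H1.7 (III, 9326627 to 9326830) it was in coding sequence of exon 8, at -112 bp from an internal end, with 63.7 in replicate 1 and 83.1 in replicate 2. The coding exon of a longer transcript was here the upstream region of a shorter one. Further members were nhr-66, for a nuclear hormone receptor, with the summit at -142 bp from an internal end and 6883 bp behind the outermost, unc-43, for the calcium and calmodulin-dependent kinase CaMKII, at 61 bp and 19104 bp, and lin-45, for the Raf kinase, at 28 bp and 717 bp. At unc-43 the replicates stood apart, with 17.8 in replicate 1 and 57.1 in replicate 2, whereas lin-45 had 27.9 and 26.0.

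M01H9.4, F35E12.9, nhr-104, R10E11.6 and F44E7.5 complete the 10 strongest peaks near an internal end, with signals of 143, 132, 113, 105 and 176 in the optimal list. All 5 had the outermost 5' end within 321 bp, a wider limit than the 200 bp used above for near. In each the relative signal was above 1 in both replicates. The summit of R10E11.6 was 1 bp before an internal 5' end (III, 9783241 to 9783364). The peak of F44E7.5 (V, 5780815 to 5781011) also lies over the noncoding RNA gene F44E7.13.

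Peaks far from every annotated protein-coding start formed the largest single class after those at the outermost 5' end. Assigned once each, 209 exon peaks (39.9%) were within 200 bp of the outermost 5' end of the host, 36 (6.87%) of an internal one, 2 of another one of the host and 20 (3.82%) of another gene only. A further 58 (11.1%) were 201 to 500 bp from the nearest 5' end of any protein-coding gene, and 199 (37.98%, exact 33.8 to 42.3) were over 500 bp from every one, of which 118 were over 1000 bp. Because 69.0% of exon bases are that far, the density of the distant peaks was 14.1 per Mb, against 82.6 per Mb of exon within 200 bp of a host 5' end. Among the 199, 93 were in coding sequence (7.60 per Mb of such bases), 89 in 3' untranslated sequence (51.8 per Mb) and 17 in 5' untranslated sequence (131 per Mb), and 127 (63.8%) were in a last exon. Annotated untranslated sequence was thus denser in summits than coding sequence at these distances too. How many of the distant exon bases are in last exons was not computed.

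Hosts of distant peaks often carried a further optimal peak at the promoter. A summit from 1000 bp upstream to 200 bp downstream of the outermost 5' end, other than the exon summit itself, was present for 87 of the 199 distant peaks (43.7%, exact 36.7 to 50.9) and for 151 of all 524 (28.8%). Of all 14364 protein-coding genes on the 4 chromosomes, 2762 (19.2%) had an optimal summit there. This last share counts each gene once and leaves out no summit, whereas the others count peaks. The share over all 524 is lowered by the rule, because 209 of them are themselves within 200 bp of the outermost 5' end.

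The strongest distant peak after C34C12.2 was at srx-41, a chemoreceptor-type gene (V, 3634527 to 3634806). Its signal was 200, at 69.9 in replicate 1 and 124 in replicate 2, in the 3' untranslated part of the last exon. Next was F01F1.3 (III, 5874336 to 5874652), with 190 in the optimal list, 61.7 in replicate 1 and 128 in replicate 2, in coding sequence 1842 bp behind the nearest 5' end of the gene. It was the strongest of the 175 coding peaks, and its sequence at the summit is given above. A second exon peak of F01F1.3 sat 6 bp behind the outermost 5' end, with 42.1 in replicate 1 and 54.95 in replicate 2.

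At pqm-1 (II, 11151026 to 11151284) the summit was in coding sequence of exon 5, 1427 bp behind the 5' end, with a signal of 166, at 62.6 in replicate 1 and 107 in replicate 2. The E-box printed above begins 26 bp from the summit by coordinate, and the gene has a further optimal peak at its promoter. At F22D3.4 (II, 6926598 to 6926852) and dmd-7 (V, 6247539 to 6247734), for a protein of the DM domain family, the summits lay in long first exons, 863 and 686 bp behind the 5' end. Their signals were 162 and 153, and both exceeded a relative signal of 2 in each replicate. Of all 5' untranslated summits, 32 (14.6%) were over 200 bp behind every 5' end of the host.

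At F26F12.3 (V, 5843514 to 5843767) the signal was 163, with 59.3 in replicate 1 and 98.6 in replicate 2. Y55D9A.2, C05D11.8 and best-18, for a bestrophin-type channel protein, complete the 10 strongest distant peaks, with 141, 134 and 134 in the optimal list. The summits at Y55D9A.2 and C05D11.8 were in 3' untranslated sequence, 4265 and 6034 bp behind the 5' end, and that of best-18 in coding sequence. End-of-gene peaks of lower rank included end-1, for a GATA factor that specifies endoderm (V, 13986993 to 13987151), with 56.4 in replicate 1 and 64.5 in replicate 2. At lin-12 (III, 9060263 to 9060626) the summit was in the last coding exon, 11027 bp behind the 5' end, with 34.5 in replicate 1 and 58.0 in replicate 2, both above the median.

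The exon peaks fell in 502 of 14364 genes, or 3.49% of the protein-coding genes on the 4 chromosomes. Of these, 471 had 1 exon peak, 29 had 2 and 2 had 3. Host genes were longer than the rest, with a median length of 2467 bp against 1908 bp for all genes, 6 exons against 5 and 1474 exon bases against 1119, and 39.6% of them have an internal 5' end against 19.02%. Longer genes offer more exon bases in which a summit can fall, and no adjustment for this was made. The exon that held the summit had a median length of 276 bp, where the median annotated exon is 171 bp. These are unlike measures, because a longer exon is more likely to hold any position. Where transcripts differ, the longest exon was also the one taken, so no preference for long exons can be read from the gap.

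The 2 genes with 3 exon peaks differed in strength. In F26F12.3 the 3 relative signals were 2.01, 1.59 and 1.56 in replicate 1 and 2.61, 1.16 and 1.10 in replicate 2, all above the median. In T28B11.1 they were 0.73, 0.32 and 0.86 in replicate 1, and replicate 2 had 0.91 and 0.55 and no summit for the last of them. C05D11.8 had 2 peaks in its last exon, with 54.6 and 74.4 in replicate 1 and 92.0 and 45.6 in replicate 2, so that the replicates ordered them differently. The lipase gene lipl-2 had its stronger peak 3 bp behind the 5' end (V, 9791413 to 9791649), with 62.6 in replicate 1 and 91.8 in replicate 2, and a weaker one in coding exon 2. F22D3.4, dmd-7 and M01H9.4 also had 2 each, and in each the second was under 54 in the optimal list. At lipl-2 and at F22D3.4 the 2 intervals overlap, with summits 199 bp apart, so they need not be separate sites.

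By gene group, read against the 3.49% of all genes, exon peaks were most frequent among signalling and longevity regulators, with 6 of 36 genes (16.7%), and bZIP and bHLH factors, with 7 of 45 (15.6%). The first were sma-2, lin-12, lin-42, lin-45, daf-15 and daf-1. Their roles range from SMAD and Notch signalling to the Period homologue LIN-42, the TORC1 subunit DAF-15 and the TGF-beta receptor DAF-1. The second were crh-1, zip-11, skn-1, hif-1, fos-1, zip-2 and crh-2, where SKN-1 is the Nrf-type factor of oxidative stress and HIF-1 the hypoxia factor. At skn-1 (IV, 5650951 to 5651314) a summit was found in replicate 2 only, at 20.4, and at hif-1 (V, 20781493 to 20781856) the signals were 21.8 and 24.7, below the median of each replicate. Several of these hosts were thus weak peaks. The groups were not matched for gene length or internal 5' ends, so their order describes these lists and no more.

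Nuclear hormone receptor genes had an exon peak in 19 of 223 (8.52%), led by nhr-8 (IV, 7710902 to 7711123), with 67.4 in replicate 1 and 92.6 in replicate 2, 28 bp behind a 5' end. Detoxification and antioxidant enzymes had 15 of 187 (8.02%), among them the cytochrome P450 genes cyp-37B1, at 50.5 and 80.6, and cyp-13A2, at 32.6 and 70.7. Both P450 peaks were above the median of each replicate and within 83 bp of the 5' end. In this group 6 genes had a peak in coding sequence, as at the glucuronosyltransferase gene ugt-47 (V, 10096996 to 10097359), in exon 4, with 29.4 in replicate 1 and 33.7 in replicate 2.

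Genes of the cytoskeleton and membrane traffic had 5 of 50, with rab-18, rab-7, sec-61.A, rho-1 and sec-61.B, and lipid metabolism had 5 of 67 (7.46%). The vacuolar ATPase and lysosome group had 3 of 38 (7.89%), cytosolic chaperones 3 of 47 (6.38%), splicing and RNA-binding factors 3 of 51 (5.88%) and chromatin factors 3 of 55 (5.45%). The chaperone gene hsp-90 (V, 14687402 to 14687765) had its summit in coding sequence 1424 bp behind an internal 5' end, with 14.6 in replicate 1 and 30.2 in replicate 2, below the median of both. The chromatin gene swsn-4, for the ATPase of SWI/SNF complexes (IV, 11130777 to 11131140), had it in the last exon with 47.1 and 48.6, above both medians. Single hosts were the GATA factor gene end-1 (1 of 7), ears-2 among aminoacyl-tRNA synthetases (1 of 22), cpr-9 among intestine genes (1 of 22), rpn-11 among proteasome subunits (1 of 23) and ceh-38 among homeobox factors (1 of 55).

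No exon peak fell in any of 24 genes for mitochondrial chaperones, proteases and stress regulators, 27 of oxidative phosphorylation, 12 of endoplasmic reticulum stress and folding or 54 for cytosolic ribosomal proteins. The same held for 29 translation factors, 66 histones, 29 muscle and attachment genes and 99 germ line and oocyte genes. At 3.49% only few hosts would fall in lists of this size, and genes differ in length, so a count of 0 describes these lists and no more. Mitochondrial ribosomal proteins had mrps-21 and mrpl-53 (2 of 55, 3.64%), both below the median in each replicate, and neuronal genes had unc-43 and mec-17 (2 of 55). Among the large families, chemoreceptor-type genes had 9 of 1294 (0.696%), C-type lectins 4 of 201 (1.99%) and cuticle collagens with moulting genes 2 of 155 (1.29%).

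**Figure D3:**
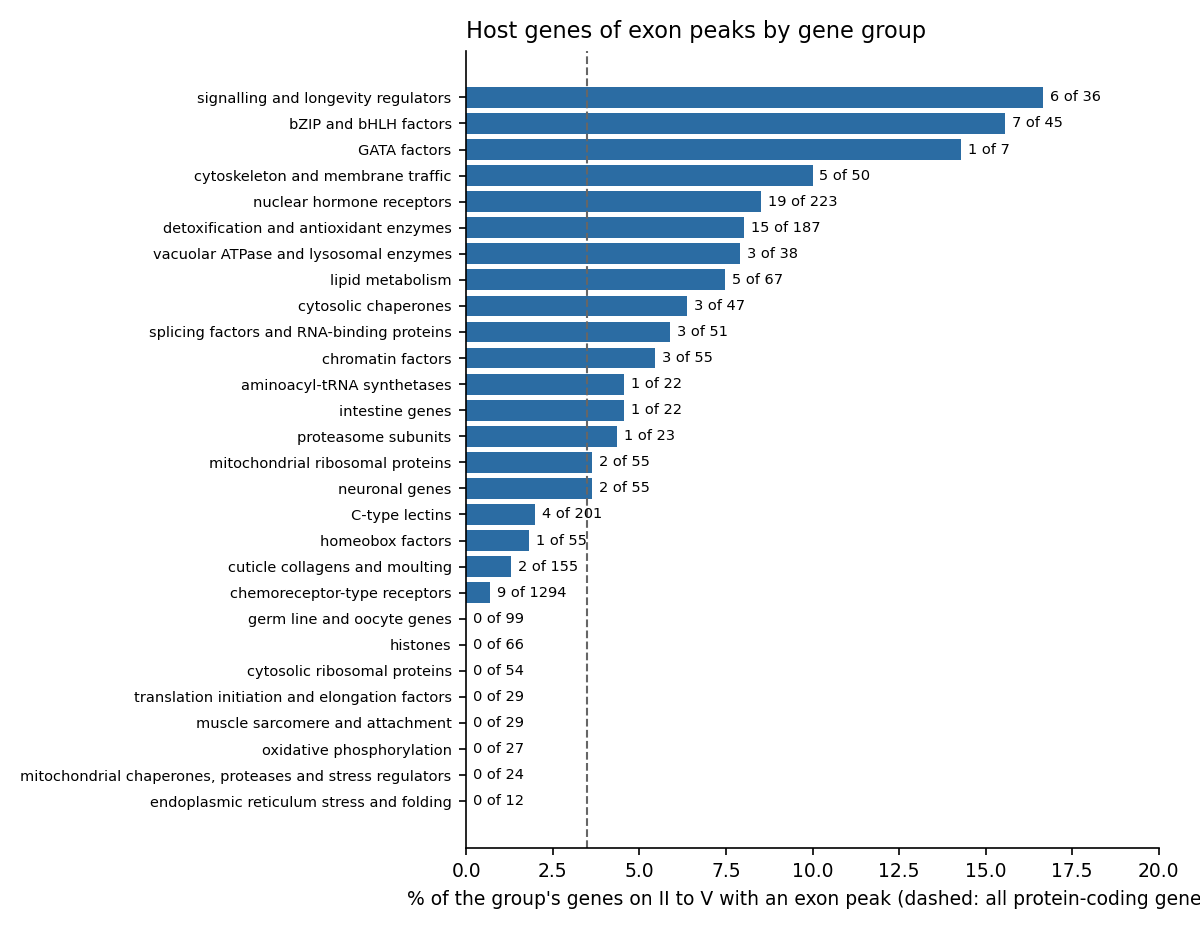
Percentage of the genes of each group on chromosomes II to V that host an exon peak, with counts at the bars, and the 3.49% of all protein-coding genes as a dashed line. Signalling regulators (6 of 36) and bZIP and bHLH factors (7 of 45) are at the top, and 8 groups have none.

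Exon peaks had lower signal than the other autosomal peaks. The median was 51.7 in the optimal list (quartiles 41.9 and 76.0, range 34.8 to 368), against 66.1 for the other 4111 and 62.2 for intron peaks. The ratio of medians to the other autosomal peaks was 0.783 in the optimal list, and 0.831 in replicate 1 and 0.797 in replicate 2 (0.814 ± 0.024, SD, n = 2), so that both replicates were on the same side of 1. Within exons the median was 59.6 in 5' untranslated, 48.6 in 3' untranslated and 48.3 in coding sequence, 55.9 in first and 48.5 in later exons, and 48.3 over 500 bp from every 5' end. Later exon peaks had 0.885 of the median of first exon peaks in replicate 1 and 0.846 in replicate 2 (0.866 ± 0.027, SD, n = 2).

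The share of exon peaks was higher among weaker regions. Among the 500 strongest pooled regions, 13 of 326 summits on the 4 chromosomes were exonic (3.99%, exact 2.14 to 6.72). For ranks 501 to 1000 it was 7.06%, for 1001 to 2000 7.66%, for 2001 to 4000 9.16% and for 4001 to 7262, the last of the optimal list, 15.5% (exact 13.98 to 17.1). Beyond the optimal list the share was 18.6% for ranks 7263 to 10000 and 26.0% (exact 24.5 to 27.6) for 10001 to 15000. At ranks 20001 to 30000 it was 26.3%, still below the 30.3% of bases that are exonic. Each replicate on its own showed this order, from 3.73% to 16.6% in replicate 1 and from 3.79% to 14.3% in replicate 2 between the first and the last of these bins within 7262. For coding sequence the pooled share went from 0.613% in the first bin to 6.08% at ranks 4001 to 7262 and 19.01% at 20001 to 30000.

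**Figure D4:**
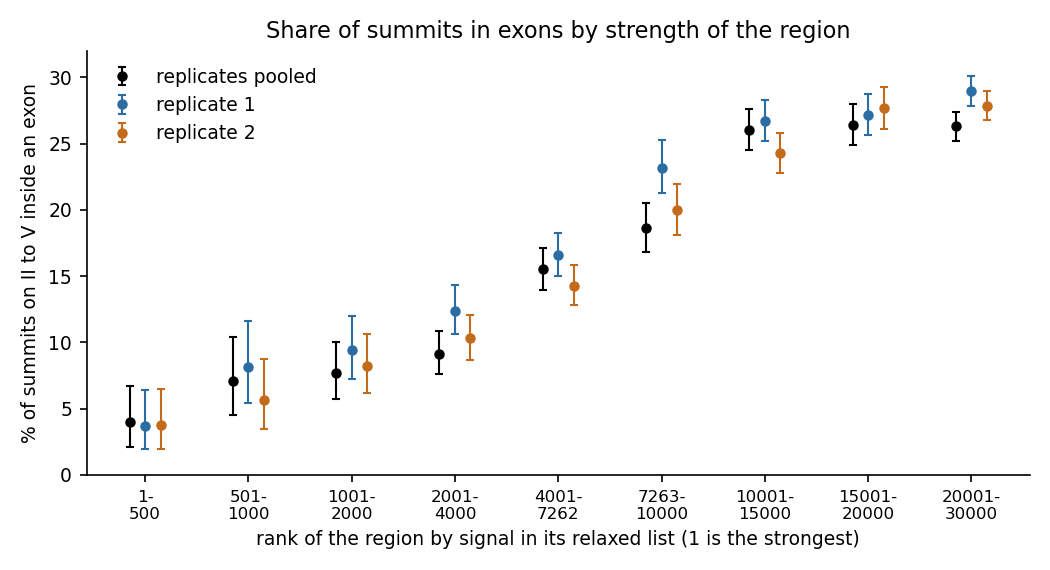
Percentage of summits on chromosomes II to V that lie in an exon, by rank of the region in the relaxed list of pooled replicates (black), replicate 1 (blue) and replicate 2 (orange), with 95% exact binomial intervals. The pooled share is 3.99% for the 500 strongest regions and 15.5% at ranks 4001 to 7262.

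Support by both replicates was common but less tight than elsewhere. Over all optimal peaks, 94% had a summit within 100 bp in the relaxed list of each replicate, and this held for 479 of 524 exon peaks (91.4%, exact 88.7 to 93.7). The stricter rule, which asks that the peak be among the strongest regions of both replicates, as many as the optimal list holds, was met by 71.6% of all optimal peaks and by 314 exon peaks (59.9%, exact 55.6 to 64.2). Under it 5' untranslated summits had 68.04%, coding summits 56.0% and 3' untranslated summits 51.5%. Peaks within 200 bp of an internal 5' end had 71.9% (exact 59.2 to 82.4), close to the background, and peaks over 500 bp from every 5' end had 50.8% (exact 43.6 to 57.9), below it. These shares were not compared at matched signal.

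Across the 479 exon peaks found in both, the SD of log2(replicate 1/replicate 2) was 0.72, against 0.65 for the other autosomal peaks and 0.83 for the distant exon peaks. A summit was missing from replicate 1 only for 25 exon peaks, from replicate 2 only for 18 and from both for 2. The strongest of these was at M01H9.3 (IV, 4469906 to 4470269), with a signal of 96.7 in the optimal list and 57.1 in replicate 1, and no summit within 100 bp in replicate 2. Next were ptd-2, at 71.7 and with no summit in either replicate, amx-3, at 70.3 and 48.95 in replicate 1, F10E9.12, at 67.9 and 47.5 in replicate 2, and ttr-15, at 67.1 and 40.2 in replicate 2. A region can be present in such a replicate with its summit further off, since 98.3% of exon peaks had a summit within 200 bp in both.

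**Figure D5:**
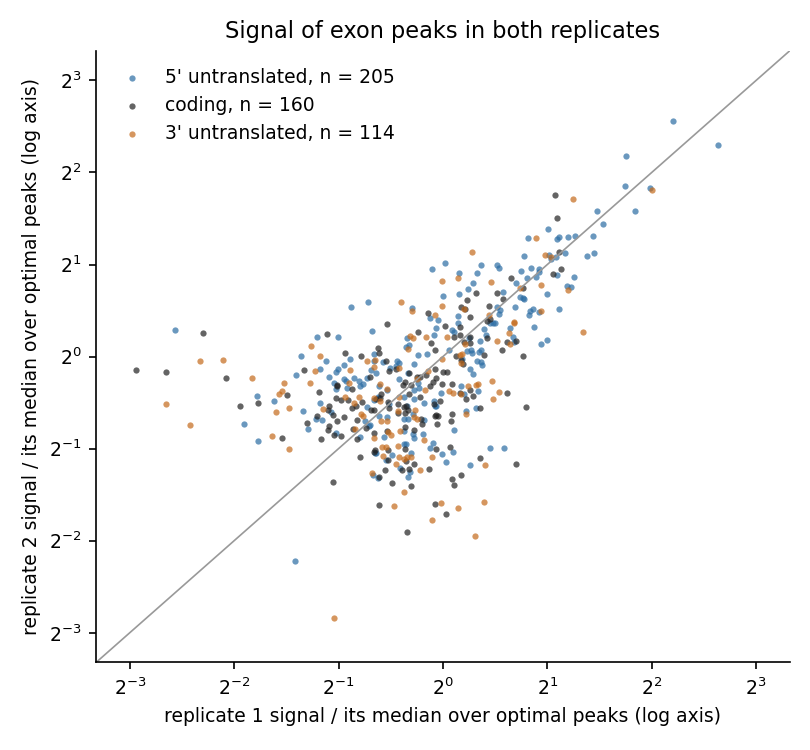
Relative signal of the 479 exon peaks found in both replicates, replicate 1 against replicate 2 on log axes, coloured by the kind of sequence at the summit, with the line of equal values in grey. The SD of the log2 ratio was 0.72 over all, and 0.61 at 5' untranslated, 0.74 at coding and 0.85 at 3' untranslated summits.

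Most exon peaks were of the commonest interval width, 364 bp, with 434 of 524 (82.8%) against 72.1% of the other autosomal peaks, and 89.7% of coding peaks. Small RNA genes were rarely near. A gene for a tRNA, snRNA, snoRNA or rRNA lay within 300 bp of 9 exon peaks (1.72%; 6 tRNA and 3 snRNA genes), against 211 of the other 4111 (5.13%). The strongest of these was at dhc-4 (III, 10989660 to 10990023), in coding exon 32, with 51.0 in replicate 1 and 25.8 in replicate 2. Of the exon peaks, 15 lay over an annotated noncoding gene, 15 had the summit also inside another protein-coding gene, 11 had 2 host genes and 3 were in genes with a single exon.

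The line between exon peaks and the rest is thin at exon edges. The summit was a median of 54.5 bp from the nearer edge of its exon, 80 exon peaks were within 10 bp of an edge, and 58 other autosomal summits lay within 10 bp outside one. Of the summits on the very edge base of an exon, the strongest 3 were at gpa-8, with 34.0 in replicate 1 and 53.9 in replicate 2, at B0244.17, and at acaa-2, with 18.1 and 22.6. Just outside, with ties taken by signal, were drd-1, ugt-65 and C47G2.4, each 1 bp beyond the edge, with signals of 91.0, 83.4 and 79.7 in the optimal list.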

How the data were processed

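The deposited lists are narrowPeak files without header on ce11. Per the text deposited with them, the relaxed list of each replicate and of the pooled replicates derives from its alignment and 1 shared control alignment, and the optimal list from these lists by IDR. The deposited signal of each region is the value the authors' peak caller gave. For the aligner, the peak caller and the threshold, the sources used here name none. Lists on ce10 were not used.

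The summit is the start plus the offset given per region. Summits were placed in exons of Ensembl release 115 (WBcel235), whose chromosome lengths fit the lists. Where transcripts differ, coding was preferred over untranslated and first over later exon. Python 3.11.15, numpy 2.4.6, scipy 1.17.1 and matplotlib 3.10.9 were used, and placement was tested on simulated data. Shares have 95% exact binomial (Clopper-Pearson) intervals.

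Named peaks are the 15 strongest, the 10 strongest over 500 bp from every 5' end and near an internal one, those of the 8 genes with most, the 5 strongest lacking a replicate, up to 4 per gene list and 3 at each side of an exon edge. Other peaks with values were chosen with these known. The members and the 28 gene lists, chosen by symbol, were set with earlier results of these data known, and the symbol patterns were made exact after their counts were seen. The alternatives changed the peak set, the position, distances, transcripts and each replicate alone.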

Additional observations from a re-analysis of the deposited data

How the results depend on the processing

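Each of 7 results was recomputed under the alternatives, 48 values in all, of which 26 moved by less than their interval or replicate SD. With the stronger 50% of the optimal list by rank, the exon share was 7.94%, the first exon share 61.7%, the share within 200 bp of a host 5' end 56.8%, near an internal 5' end 16.4%, in coding sequence 23.0% and in both replicates 97.3%, and the ratio of median signal to the other autosomal peaks 0.895. Coding sequence only gave an exon share of 3.78%. A distance of 100 bp gave 37.6% near a host 5' end and 6.68% near an internal one, and 500 bp gave 53.6% and 20.04%. Internal ends over 300 bp downstream gave 6.11%. Matching replicates within 50 bp gave 70.04%, within 200 bp 98.3%, and among the strongest regions 59.9%. Against intron peaks the median ratio was 0.832. With each replicate left out, the exon share ran from 11.0 to 13.0%, the first exon share from 47.9 to 52.2%, the share near a host 5' end from 42.1 to 46.3%, near an internal one from 10.8 to 13.1%, in coding sequence from 33.3 to 36.8%, and the median ratio from 0.817 to 0.833. The ratio was below 1 in 7 of 7 settings. Midpoints in place of summits and leaving out small RNA loci moved none of the 7. Of 154 relative signals of 77 named peaks in both replicates, 47 differed from the optimal list's relative value by more than the replicate SD. No paired analysis was possible because there is 1 group. Unknown depth limits the weakest peaks, and causes were not tested.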
